A study of Mus musculus with 6 samples.

Results

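The gp130 cytokine pathway was described here through 10 genes of a count table of 26264 genes. They were taken by gene symbol: the ligand Lif, the receptors Il6st, Lifr, Cntfr, Osmr and Il6ra, the kinases Jak1 and Jak2, the transcription factor Stat3 and the inhibitor Socs3. All 10 were found, and 9 of them had enough counts to be tested.

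Cytokines of this family bind receptor complexes that share gp130, the product of Il6st. Lif uses Lifr with gp130, ciliary neurotrophic factor adds Cntfr to that pair, oncostatin M uses Osmr or Lifr with gp130, and interleukin-6 uses Il6ra. Janus kinases on the receptor tails then phosphorylate Stat3, which enters the nucleus and activates genes that include Socs3, whose product blocks the kinases. In neural progenitors this route is known for inducing astrocyte genes such as Gfap.

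The libraries came from spinal cord neural stem cells of C57BL6J mice, described as adult in the study's title, grown with EGF and FGF2 and sorted for GFP under a Pdgfra reporter. The 3 GFP-positive libraries are labelled PDGFRaGFP/+ and the 3 GFP-negative ones PDGFRaGFP/-. Whether these labels give a genotype that differed or only the result of the sort is unclear, so such a difference and the sort cannot be told apart here. The sources used here give neither age nor the number of animals or cultures, and do not say what a replicate number stands for. Each p-value below therefore reflects only how these samples vary, and that variation may be technical. The contrast of GFP-positive with GFP-negative cells asks how such cultures make cells of the oligodendrocyte lineage.

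Library totals lay between 31067850 and 45207335 counts. Pdgfra, the gene behind the sort, was 4.06 higher on the log2 scale in GFP-positive cells (SE 0.27). Of 9 precursor markers, a list that includes Pdgfra itself, 8 were higher. Over all genes tested 26.1% were called higher and 29.2% lower. Neural stem cell markers were present in both fractions, at a summed 5998 to 6772 CPM (a gene's reads relative to its library's TMM-adjusted total) in GFP-negative and 2430 to 2546 CPM in GFP-positive libraries. Of these 9 markers 7 were lower in GFP-positive cells, Sox9 was higher by 0.34 on the log2 scale and Msi1 was not called. All 12 astrocyte markers were lower in GFP-positive cells, at a summed 526 to 664 CPM against 4016 to 5095 CPM. They moved with most of the genes below, and their part in those results was not tested. In bulk RNA, fewer cells of a type and less RNA per cell cannot be told apart. Of 10 microglia markers, C1qa, C1qb and Tyrobp had 0 counts in all libraries, and the list summed to at most 2.64 CPM in any library. Of 7 neuron markers 4 were tested and all 4 were higher in GFP-positive cells, with list sums of 85.9 to 93.0 CPM against 19.4 to 33.8 CPM; Slc17a6 had 0 counts in all libraries, and their part in the results was not tested. GFP-negative replicate 2 stood apart in fibroblast and mural markers, at a summed 104 CPM, nearly all from Col3a1 (102 CPM), against 2.67 and 22.7 CPM in GFP-negative replicates 1 and 3. GFP-positive replicate 2 was likewise the highest of its group, at 9.38 CPM against 0.409 and 1.25 CPM.

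Promoter sequence is shown for Socs3, the feedback inhibitor, and for Osmr, the gene with the largest fold change among the 10. The windows are from RefSeq on GRCm38.p6, each 250 bases before to 50 after an annotated start, and all 10 genes matched the table with 16 windows. The counts were made on mm39, so these positions are not those of the counted reads. The letters TTCNNNGAA, a form of the element that STAT proteins bind, read the same on both strands and are in capitals. Socs3 lies on the minus strand at chr11:117969317-117969616 and Osmr on the minus strand at chr15:6874264-6874563.
Socs3: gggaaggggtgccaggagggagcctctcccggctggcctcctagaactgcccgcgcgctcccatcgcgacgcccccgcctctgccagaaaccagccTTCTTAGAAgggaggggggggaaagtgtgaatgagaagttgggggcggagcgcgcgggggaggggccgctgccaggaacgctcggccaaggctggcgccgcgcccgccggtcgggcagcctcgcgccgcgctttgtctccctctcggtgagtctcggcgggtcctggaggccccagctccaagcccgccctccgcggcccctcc
Osmr: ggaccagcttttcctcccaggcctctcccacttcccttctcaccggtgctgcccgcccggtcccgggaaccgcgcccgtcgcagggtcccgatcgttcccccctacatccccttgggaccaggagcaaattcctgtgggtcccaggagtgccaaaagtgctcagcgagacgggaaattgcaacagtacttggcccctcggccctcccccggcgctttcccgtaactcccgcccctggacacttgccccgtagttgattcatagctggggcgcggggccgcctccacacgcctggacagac

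The Socs3 window held 1 match, TTCTTAGAA, beginning 154 bases before the start. None of the other 15 windows held these letters. Of 32851 windows of this length in the table, 8.30% held at least 1 match. A match is a description of the letters and says nothing of binding in these cells.

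Of the 9 genes tested, 6 were lower in GFP-positive cells (Il6st, Lifr, Cntfr, Osmr, Jak1 and Stat3), 1 was higher (Jak2) and 2 were not called (Il6ra and Socs3). A call is an edgeR quasi-likelihood test with a Benjamini-Hochberg adjusted p below 0.05 over all 14554 genes tested. Over those genes 29.2% were called lower and 26.1% higher, 55.4% in all. With the replicate number as a block, Socs3 was called lower too (edgeR adjusted p = 0.00880). The median log2 fold change, GFP-positive over GFP-negative, was -0.55 for the 9 genes and -0.01 for all genes tested. Osmr passed the count filter only through the GFP-negative libraries, so it could be tested only because it was high there.

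The ligand Lif was near the detection limit. It had 9, 3 and 4 counts in GFP-negative replicates 1, 2 and 3, and 0, 4 and 1 in the GFP-positive ones. A count of 0 in GFP-positive replicate 1 allows up to 3 counts, or 0.0817 CPM, for counting error only. With so few counts Lif did not pass the filter, and the main fit gave no fold change for it.

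Il6st, the shared signal-transducing chain, was lower in GFP-positive cells. It stood at 118, 111 and 115 CPM in GFP-negative replicates 1, 2 and 3, and at 77.5, 80.9 and 76.4 CPM in the GFP-positive ones. The groups did not overlap, and the libraries of each group lay close together. GFP-positive libraries lay wholly below GFP-negative ones in 33.0% of all genes tested and wholly above them in 31.3%, 64.2% in all. The GFP-negative level was 1.46-fold the GFP-positive one (log2 fold change -0.55, SE 0.05, edgeR adjusted p = 6.55e-05).

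Lifr, the receptor chain for Lif, was lower by more than Il6st. It was at 212, 152 and 209 CPM in GFP-negative and 94.9, 88.1 and 93.1 CPM in GFP-positive replicates 1 to 3. GFP-negative replicate 2 was the low library of its group and still lay above every GFP-positive library. The mean was 191 ± 34.1 against 92.0 ± 3.56 CPM (SD, n = 3). The fitted difference on the log2 scale was -1.05 (SE 0.12, edgeR adjusted p = 1.87e-04). Without GFP-negative replicate 2 the log2 fold change was -1.19.

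Cntfr, the membrane-anchored binding chain for ciliary neurotrophic factor, was also lower. Its levels were 68.6, 81.0 and 74.7 CPM in GFP-negative and 39.4, 46.9 and 40.5 CPM in GFP-positive libraries. Replicate 2 was the highest in both groups, which did not overlap. The log2 fold change was -0.82 (SE 0.09, edgeR adjusted p = 1.40e-04), and the same-numbered pairs differed by -0.80, -0.79 and -0.88.

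Osmr, the oncostatin M receptor chain, had the largest fold change on a low level. It had 70, 43 and 48 counts in GFP-negative and 6, 1 and 7 in GFP-positive replicates 1 to 3, or 1.68 ± 0.39 against 0.125 ± 0.0904 CPM (SD, n = 3). The log2 fold change was -3.77 (SE 0.53, edgeR adjusted p = 5.39e-04), a 13.7-fold difference with few counts on one side. The fibroblast and mural marker sums given above varied widely between libraries and overlapped between the fractions, mainly through Col3a1, which was not called. Each marker of that list had a lower mean in GFP-positive cells, most on few counts. Col1a1, the only other one tested, did not overlap, at 1.02 ± 0.27 CPM in GFP-negative and 0.131 ± 0.173 CPM in GFP-positive libraries (SD, n = 3). The part of these markers in the Osmr difference was not tested.

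Il6ra, the interleukin-6 binding chain, was low in both fractions, at 12, 14 and 17 counts in GFP-negative and 13, 17 and 7 in GFP-positive libraries. The groups overlapped, and the log2 fold change of -0.55 (SE 0.40) was not called (edgeR adjusted p = 0.282). The pairs differed by -0.04, -0.26 and -1.48, so most of that value came from replicate 3; without replicate 3 it was -0.14. Annotated Il6ra exons share 242 bases with a gene on the other strand, Gm42809, and the strand setting of the counting is not known from the labels.

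**Figure D1:**
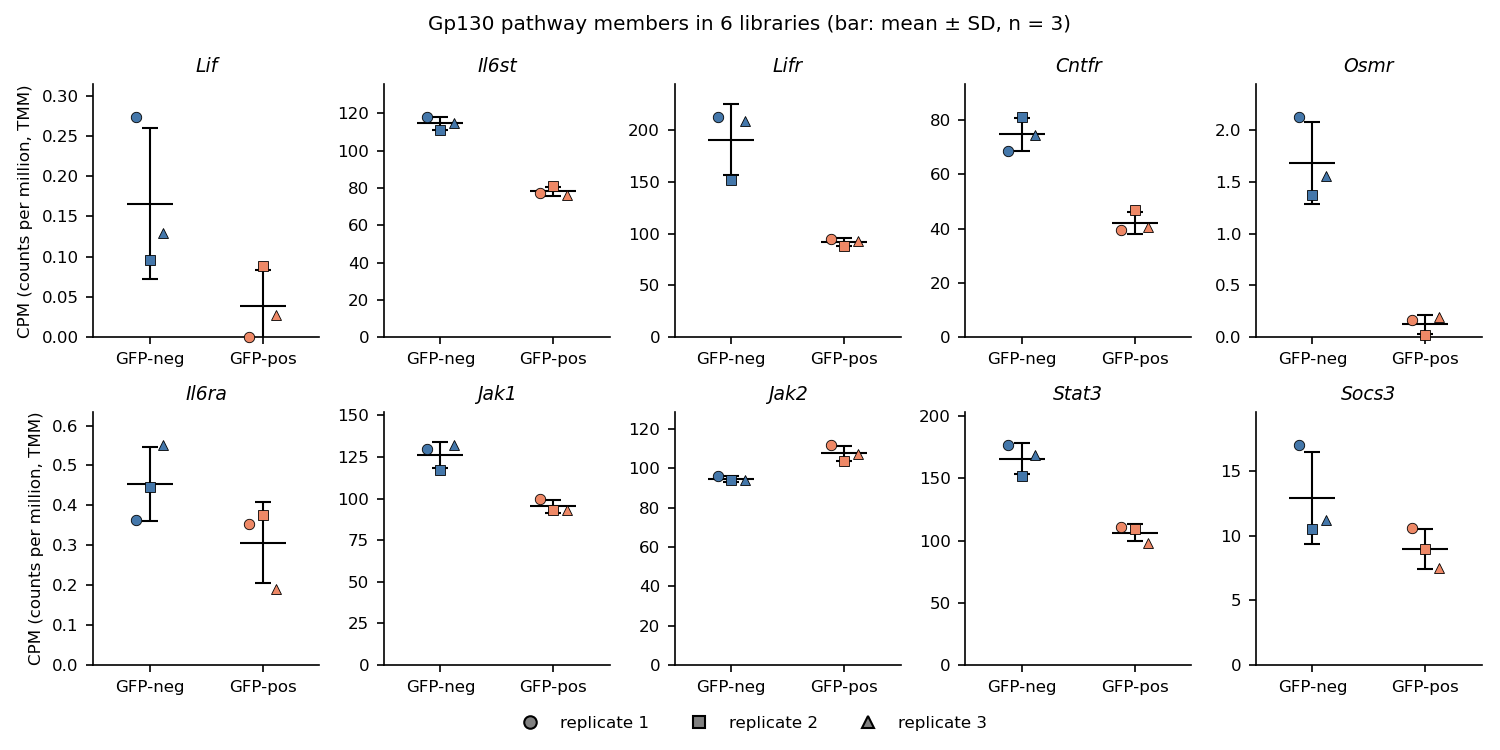
CPM of the 10 genes in each library (points, shaped by replicate), with the group mean and SD (bars, n = 3), each panel on its own linear axis from 0. The fractions do not overlap for Il6st, Lifr, Cntfr, Osmr, Jak1, Jak2 and Stat3, and overlap for Il6ra and Socs3. Those of Lif nearly meet, at 0.0883 and 0.0956 CPM; Lif and Il6ra rest on at most 17 counts per library.

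The receptor-bound kinases differed in opposite directions. Jak1 was at 130, 117 and 132 CPM in GFP-negative and 99.7, 93.1 and 93.3 CPM in GFP-positive replicates 1 to 3, a fitted log2 difference of -0.41 (SE 0.06, edgeR adjusted p = 8.75e-04). Jak2 was at 96.1, 93.8 and 93.8 CPM against 112, 104 and 107 CPM, and was higher by 0.19 (SE 0.05, edgeR adjusted p = 0.0142). Neither gene's groups overlapped, which by itself makes Jak2 higher in 3 of 3 same-numbered pairs. The Jak2 difference is small, a 1.14-fold higher level, and its call was lost without replicate 1 (adjusted p = 0.0951) and without replicate 3 (0.109). Per kilobase of exon, the ratio of Jak2 to Jak1 within a library was 0.724, 0.781 and 0.693 in GFP-negative and 1.09, 1.09 and 1.12 in GFP-positive cells. This ratio, which does not depend on library scaling, was examined after the levels were seen. It did not overlap between groups (exact permutation test, two-sided p = 0.10, the smallest that 3 against 3 allows). As Jak1 and Jak2 each separated the groups in opposite directions, this outcome was fixed beforehand, so the test adds no support.

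Stat3, the transcription factor of the route, was lower in GFP-positive cells. It stood at 177, 152 and 168 CPM in GFP-negative and 111, 109 and 98.4 CPM in GFP-positive libraries. The groups did not overlap, and the log2 fold change was -0.64 (SE 0.07, edgeR adjusted p = 1.82e-04). Stat3 exons share 72 bases with Stat5a on the other strand, a small part of a 6228-base exon model.

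Socs3, the inhibitor that Stat3 induces, had a lower mean in GFP-positive cells, and whether it was called depended on the fit. Its levels were 17.0, 10.5 and 11.3 CPM in GFP-negative and 10.6, 8.96 and 7.50 CPM in GFP-positive replicates 1 to 3. GFP-negative replicate 1 was well above the rest, and GFP-positive replicate 1 lay just above GFP-negative replicate 2, so the groups overlapped. The log2 fold change was -0.52 (SE 0.21, edgeR adjusted p = 0.0613), and it was -0.50 (SE 0.12, adjusted p = 0.00880) with the replicate number as a block. DESeq2 (adjusted p = 0.0334) and edgeR without the count filter (0.0434) also called it. Within pairs the differences were -0.68, -0.23 and -0.59. Without GFP-negative replicate 1 the unpaired log2 fold change was -0.27 (adjusted p = 0.210), and without GFP-negative replicate 2 it was -0.64 (adjusted p = 0.0195). The ratio of Socs3 to Stat3 per kilobase of exon overlapped between groups, at 0.189 ± 0.0401 in GFP-negative and 0.206 ± 0.0236 in GFP-positive cells (SD, n = 3; exact permutation test, two-sided p = 0.60).

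**Figure D2:**
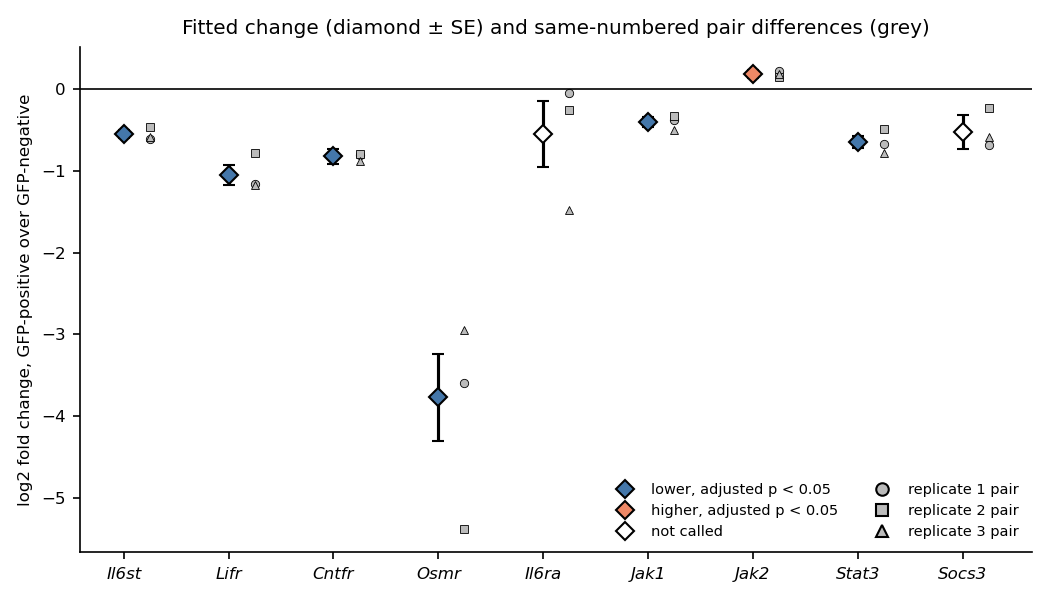
Log2 fold change of the 9 tested genes, GFP-positive over GFP-negative (diamonds, ± SE), beside the difference in each same-numbered pair (grey). Osmr lies at -3.77 with the widest spread among pairs, the other called receptors between -0.55 and -1.05, and Jak2 alone above 0, at 0.19.

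Levels of different genes were compared only after division by exon length from the GENCODE vM21 models. In GFP-negative cells Cntfr was highest, at 36.3 ± 3.01 CPM per kilobase, followed by Stat3 and Jak1 (26.6 and 25.7), then Jak2 and Lifr (18.8 and 18.4), Il6st (10.4) and Socs3 (5.07). Stat3 and Jak1 overlapped across libraries, as did Jak2 and Lifr, so their order is not settled. Osmr followed at 0.306, and Il6ra and Lif, which overlapped, at 0.0525 and 0.0410.

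In GFP-positive cells Jak2 came first at 21.4 ± 0.78 CPM per kilobase, overlapping with Cntfr at 20.5, which overlapped with Jak1 at 19.4. Stat3 (17.1), Lifr (8.86), Il6st (7.13) and Socs3 (3.53) followed with each neighbour separate. Il6ra, Osmr and Lif lay at 0.0355, 0.0228 and 0.00950, with neighbours overlapping. The ligand-binding chain Lifr exceeded Il6st per kilobase in every library, by 1.76 ± 0.27 times in GFP-negative and 1.24 ± 0.08 times in GFP-positive cells (SD, n = 3). The ratio did not overlap between the fractions. An exact permutation test of its difference between them gave a two-sided p = 0.10, the smallest possible. That test was chosen with earlier results of these data known.

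**Figure D3:**
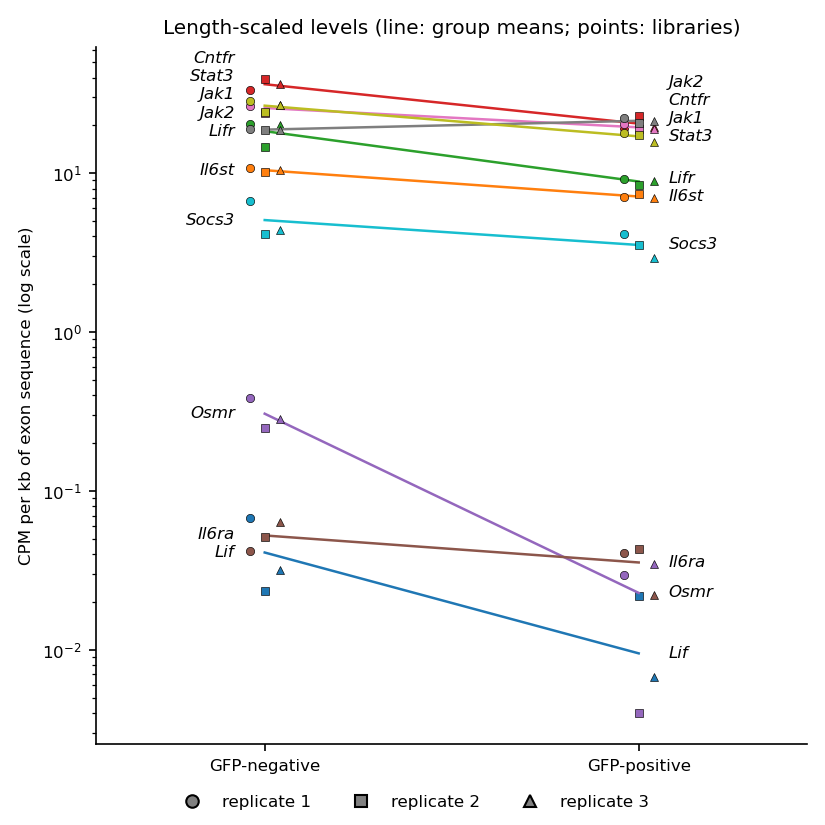
CPM per kilobase of exon on a log axis for the 10 genes, with lines joining the group means and points for the libraries; the GFP-positive replicate 1 value of Lif is 0 and is not drawn, and gene names are spaced apart where levels are close. Osmr falls from 0.306 to 0.0228, and Jak2 moves from below Jak1 to above it.

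The genes whose profiles were most like those of Il6st, Stat3 and Socs3 were sought among 9976 genes whose log2 CPM averaged 3 or more. Likeness was the root mean square difference between log2 CPM values over the 6 libraries, each gene centred on its own mean. Closest to Il6st were Tmed10, a cargo receptor of the secretory pathway (0.02), Fat3, an atypical cadherin (0.02), and Rac1, a small GTPase (0.03). Efcab2 (0.02), Nectin3, an adhesion molecule (0.04), and Plbd2, a lysosomal protein (0.05), were closest to Stat3. For Socs3 the nearest were farther off: Hoxa10, a homeobox factor (0.10), Junb, an immediate early factor (0.12), and Cbr3, a carbonyl reductase (0.12).

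Another 55 genes, of the route or of related families, were read as 5 lists by role, of which 42 were tested. Of these 19 were lower, 8 higher and 15 not called, where 29.2% of all genes tested were lower and 26.1% higher. Of the 19 lower genes 5 (Clcf1, Ctf1, Jak3, Stat6 and Timp1) passed the count filter only through the GFP-negative libraries. The median log2 fold change of those tested was -0.19, beside -0.01 for all genes. When replicate 3 was left out, 12 were lower. Lower calls over all genes fell as well, from 4254 of 14554 tested to 2951 of 14660.

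The further ligands described were scarce. Of 9 such genes 2 were tested, and both were called lower. Clcf1, a cytokine that acts through Cntfr, was lower, with a fitted log2 difference of -3.68 (SE 0.54, edgeR adjusted p = 6.48e-04), at 1.36 ± 0.29 against 0.107 ± 0.0843 CPM (SD, n = 3). Ctf1, or cardiotrophin-1, which acts through Lifr, was at 0.669 ± 0.19 against 0.133 ± 0.0704 CPM (SD, n = 3; log2 fold change -2.29, edgeR adjusted p = 0.00443). Both passed the count filter only through the GFP-negative libraries, as Osmr did, so their calls are not support for a direction of the ligands. The other 7, Il6, Il11, Cntf, Ctf2, Osm, Il27 and Ebi3, reached at most 0.354 CPM in any library. Il6 and Osm, the cytokines of Il6ra and Osmr, had 0 counts in the GFP-negative libraries and 3 and 7 in the GFP-positive ones. All 3 of Il6 and 6 of the 7 of Osm came from GFP-positive replicate 2, the library with the largest total.

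**Figure D4:**
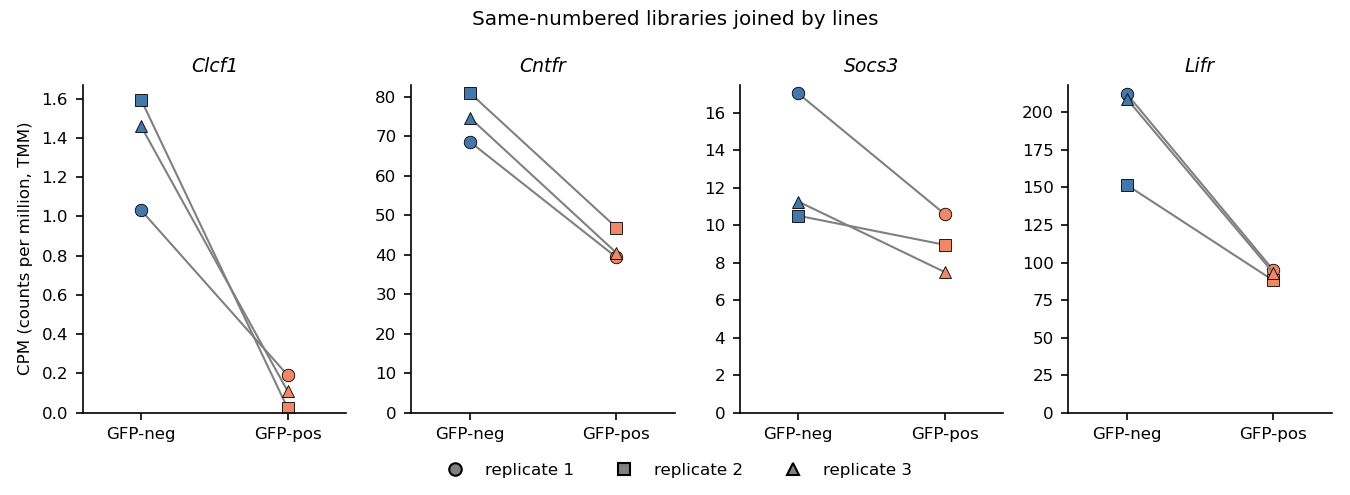
CPM of Clcf1, Cntfr, Socs3 and Lifr with same-numbered libraries joined (linear axes from 0). Every line runs down from GFP-negative to GFP-positive; for Cntfr the replicate 2 pair, at 81.0 and 46.9 CPM, lies above both other pairs.

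Of 5 further receptors 3 were tested. Il11ra1, the interleukin-11 binding chain that pairs with gp130, was lower, at 8.11 ± 2.00 CPM in GFP-negative and 1.26 ± 0.25 CPM in GFP-positive cells (SD, n = 3). Its fitted log2 difference was -2.69 (SE 0.24, edgeR adjusted p = 5.68e-05). Lepr, the leptin receptor, was not called at -0.15, nor was Csf3r, the granulocyte colony-stimulating factor receptor, at 1.05 (SE 0.44, adjusted p = 0.0754). Il27ra and Il31ra were not tested.

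Among the other kinases and STAT factors, 2 of 6 tested genes were higher and 4 lower, beside 26.1% higher and 29.2% lower over all genes. Stat5b, a STAT factor of growth hormone and related cytokines, was higher by 0.64 (SE 0.10, edgeR adjusted p = 0.00114), at 47.5 ± 2.33 against 30.5 ± 4.25 CPM (SD, n = 3). Its relative Stat5a was higher by 1.28 on less than 1 CPM, and lost its call without any 1 of 4 libraries, GFP-negative replicate 1 or 3 or GFP-positive replicate 1 or 3 (adjusted p between 0.0585 and 0.0739). The lower genes were Tyk2, a kinase of this family (-0.52), Stat2 (-0.54), Stat6 (-3.15) and Jak3 (-1.65). Tyk2 lost its call without replicate 1 (adjusted p = 0.0622), and Stat2 and Stat6 without replicate 3 (0.0526 and 0.0724). Stat6 and Jak3 passed the count filter only through the GFP-negative libraries, where they were high. Jak3, at 0.901 CPM or less on average, lost its call without GFP-negative replicate 1 or 3 or GFP-positive replicate 2 or 3 (adjusted p between 0.0802 and 0.107). The ratio of Stat3 to Stat5b per kilobase of exon, examined after the levels were seen, was 4.92 ± 0.93 in GFP-negative and 1.99 ± 0.03 in GFP-positive cells (SD, n = 3), with no overlap (exact permutation test, two-sided p = 0.10, the smallest possible). Stat3 and Stat5b each separated the groups in opposite directions, so this outcome was also fixed beforehand and adds no support.

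All 15 listed inhibitors and phosphatases were tested: 4 were higher, 1 was lower and 10 were not called, beside 26.1% higher and 29.2% lower over all genes. Their median log2 fold change was 0.10. Ptpn1, a tyrosine phosphatase of Janus kinases, was higher by 0.42 (SE 0.06, edgeR adjusted p = 4.91e-04), Socs7 by 0.37, Pias2 by 0.35 and Pias1 by 0.26. Pias3, an inhibitor of Stat3 DNA binding, was lower, at -0.35 (SE 0.09, adjusted p = 0.0115). Pias1 and Pias2 lost their calls without replicate 1 (adjusted p = 0.0714 and 0.0685), Pias2 also without replicate 3 (0.0595), and Pias3 without replicate 3 (0.127).

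Of 19 genes listed as Stat3-linked targets, which other pathways also control, 16 were tested: 11 were lower, 2 higher and 3 not called (Bcl6, Pim1 and Ccnd1), beside 29.2% lower and 26.1% higher over all genes. Bcl6 was called higher without GFP-negative replicate 1 (0.37, adjusted p = 0.00407) and with the replicate block (0.26, adjusted p = 0.0227), and Ccnd1 lower without GFP-negative replicate 3 (-0.22, adjusted p = 0.0429). Calls of Bcl6 as higher also came with DESeq2, limma-voom, no count filter and without replicate 1 (adjusted p between 0.0203 and 0.0464). Vim, an intermediate filament gene, was at 2289 ± 362 CPM in GFP-negative and 579 ± 95.6 CPM in GFP-positive cells (SD, n = 3). Its fitted log2 difference was -1.98 (SE 0.15, edgeR adjusted p = 2.15e-05). Myc, a growth regulator, was higher by 1.18 (SE 0.09) and Pim3, a survival kinase, by 1.14 (SE 0.11, adjusted p = 6.97e-05). Gfap, the astrocyte filament gene, which the naming rule did not take, was at 30.2, 67.1 and 84.3 CPM in GFP-negative and 5.31, 14.1 and 13.6 CPM in GFP-positive replicates 1 to 3 (log2 fold change -2.46, SE 0.44). Replicate 1 was the lowest library for Gfap in each fraction, and the highest for Socs3. Vim and Gfap are also in the stem cell and astrocyte marker lists, so their place here is not separate from those lists.

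**Figure D5:**
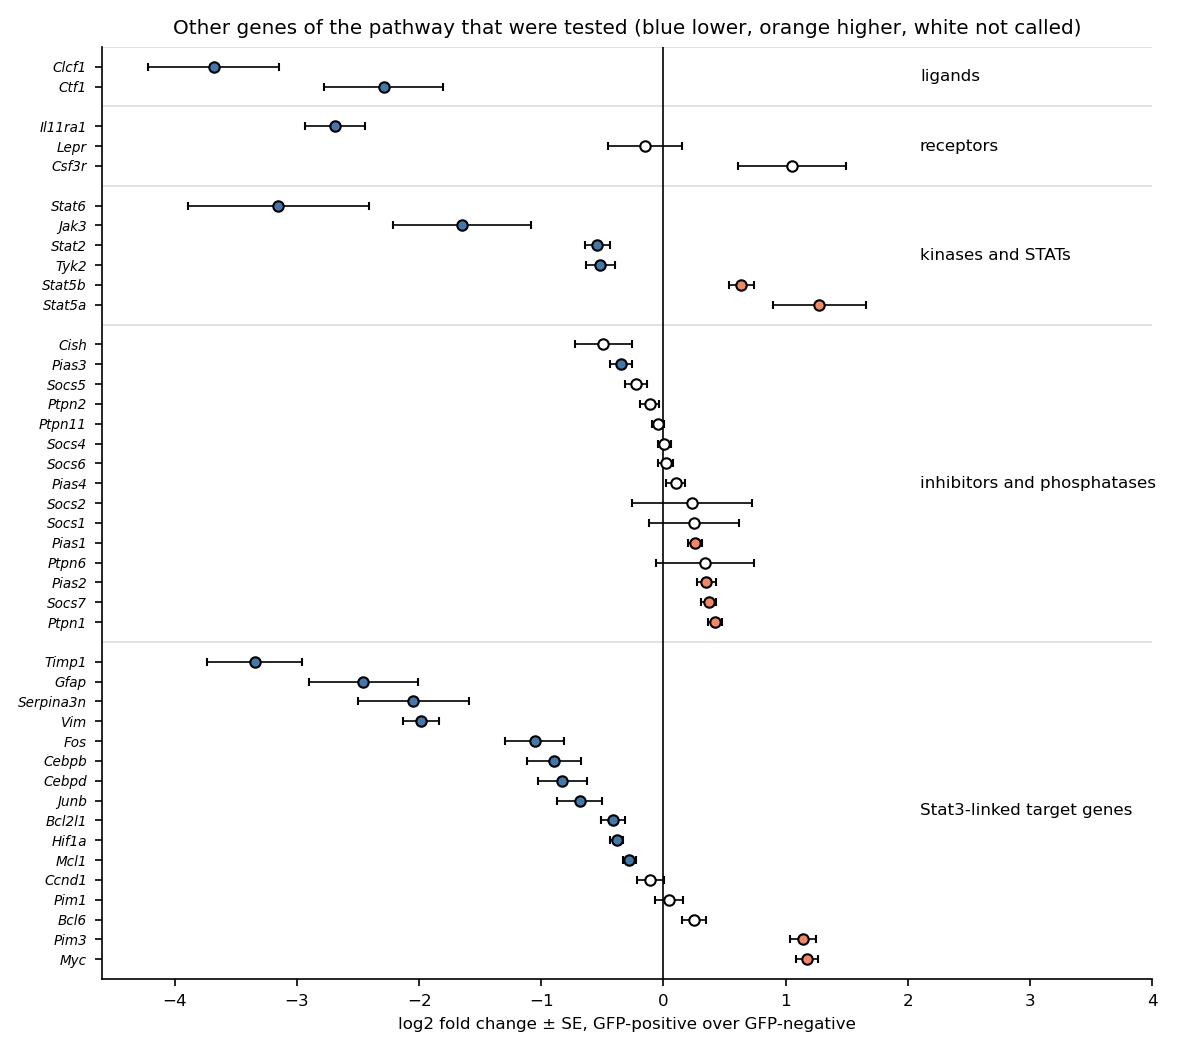
Log2 fold change ± SE, GFP-positive over GFP-negative, of the 42 tested genes outside the 10, by role (blue lower, orange higher, white not called). Clcf1, Ctf1, Il11ra1, Tyk2, Stat2, Stat6, Jak3 and most target genes lie left of 0. Of these, Clcf1, Ctf1, Stat6, Jak3 and Timp1 passed the count filter only through the GFP-negative libraries. Stat5a, Stat5b, Myc and Pim3 lie to the right, and 10 of the 15 inhibitors are not called.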

How the data were processed

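The deposited file holds raw counts of reads, 1 column per library, per the file headers. Tools named in the submitters' processing notes are featureCounts 2.0.0, TopHat2 2.1.1 and SAMtools 1.9, with the mm39 build. The sources used here do not give the annotation, strand setting or duplicate handling.

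Counts were analysed with edgeR 4.0.16 in R 4.3.3: filterByExpr, TMM scaling, quasi-likelihood F test, Benjamini-Hochberg adjustment over 14554 genes, 3 libraries against 3. The code was tested on simulated data. SE was derived from the fold change and F. CPM is TMM-scaled. Exon lengths and overlaps came from GENCODE vM21 (GRCm38), and promoters from RefSeq. Libraries of 1 group varied beyond counting noise, with a chi-square per degree of freedom of 9.83 to 34.2. Deviations from the group means correlated at 0.195, 0.318 and 0.132 in same-numbered libraries, above the limit of 0.1 in each pair. Of differently numbered libraries, GFP-negative replicate 1 with GFP-positive replicate 3 also passed it, at 0.106. The rest lay between -0.273 and 0.002. The numbers were taken to pair the samples, though the limit did not fully set same-numbered pairs apart. Each label also carries 314, 315 or 316, the same in both fractions for replicates 1, 2 and 3 in turn. The labels explain neither set of numbers, so the pairing rests on these data and on the shared numbers alone. The fit without the block is the one reported, and the blocked value is given where it changes a call.

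The 10 genes, the pathway and marker lists and the tests were chosen with earlier results of these data known; some listed genes are not reported here. Named were the 10; in each list the 3 called genes with the smallest p, the most significant opposite one, and all genes where a count was 5 or fewer; and the 3 nearest profiles of Il6st, Stat3 and Socs3. Alternatives were RLE, upper-quartile and total-count scaling, no filter, a CPM filter, DESeq2 1.42.0, limma-voom 3.58.1, the block, and leaving out libraries.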

Additional observations from a re-analysis of the deposited data

How the results depend on the processing

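Directions of the 9 tested genes were kept under every alternative that gave a value; Il6ra did not pass the filter of a CPM of at least 1 in 3 libraries. Lif was tested only without a filter (log2 fold change -1.93, edgeR adjusted p = 0.201) and with DESeq2. The calls of Il6st, Lifr, Cntfr, Osmr, Jak1 and Stat3 held in all of them. Leaving out a library or a number gave 6 to 7 of the 10 genes lower and 0 to 1 higher, 12 to 20 other pathway genes lower and 6 to 8 higher, and 2450 to 4169 genes higher and 2951 to 4468 lower over all genes. With the replicate block 7 of the 10 were lower and 1 higher, through Socs3, and the block also changed the call of Bcl6 and no other call described here. Socs3 was also called without a filter (-0.51, edgeR adjusted p = 0.0434) and with DESeq2 (-0.51, adjusted p = 0.0334). Without replicate 3, the pathway lists lost the lower calls of Stat2, Stat6, Jak3, Pias3, Cebpb, Junb and Fos. Leaving out replicate 1 lost those of Tyk2, Bcl2l1, Cebpb, Cebpd and Mcl1. Counts of at most 17 per library limit Lif and Il6ra, and counts of at most 7 the GFP-positive level of Osmr.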
